A study of Mus musculus with 6 samples.

Results

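The fast and developmental skeletal muscle genes are a set of 43 genes chosen by name for their known roles in striated muscle. Earlier results of these data were known when they were chosen. Every one of the 43 has at least 1 probe set on the array. Rows were matched by gene symbol, and the brightest probe set by mean log2 signal over the 6 arrays stood for each gene. Of the 43 genes, 40 passed the filter on dim signals (a mean signal of at least 137 in arbitrary units) and were tested among 11387 genes. Myh2, Myh4 and Mb did not pass it and are given as values alone. RNA came from back skin at e18.5, shortly before birth, with 3 Get1 +/+ and 3 Get1 -/- mice and 3 arrays per genotype. Get1 is another name of the transcription factor gene Grhl3. The strain, the sex, the litters and the part of the gene that was removed are not given in the sources used here, so p-values measure only the spread between these samples.

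Striated muscle contracts through sarcomeres, in which myosin motors pull on actin filaments anchored at Z-discs, under control of calcium through troponin and tropomyosin. Fibres pass from embryonic and neonatal myosin isoforms to adult fast or slow ones around and after birth, under MyoD-family and MEF2 transcription factors. In mouse back skin the skeletal muscle lies in the panniculus carnosus, a thin sheet below the dermis and fat that moves the skin. In bulk tissue, more muscle in a sample and more muscle RNA per fibre cannot be told apart.

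The arrays as a whole were alike, with correlations between 0.925 and 0.976 over the genes tested, and the 2% trimmed mean of the signals was 500 on each. The Grhl3 probe set, whose place relative to the deleted part is unknown, read between 478 and 934 in Get1 +/+ skin and between 246 and 413 in Get1 -/- skin (adjusted p = 0.497, limma). Only 5 genes, or 0.0439% of those tested, passed an adjusted p of 0.05, and none of these 5 is a muscle gene.

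None of the 40 muscle genes passed that threshold, the smallest adjusted p being 0.40 (Trim63, limma). Their values nevertheless leaned one way. In Get1 -/- skin 36 of 40 had a higher mean log2 signal, where 51.3% of all genes tested did, and their median log2 change was 0.35 against 0.01 for all genes. At an unadjusted p under 0.05 there were 5 of 40 (Myh3, Neb, Myog, Mef2c and Trim63), all higher in Get1 -/- skin, where 8.18% of all genes reached that level in either direction. The genotypes did not overlap for 1 of 40, Trim63, where 5.2% of all genes were separated with Get1 -/- higher. The median depended on single mice. It was 0.10 without Get1 +/+ replicate 2 and 0.21 without Get1 -/- replicate 3, and it was 0.61 without Get1 -/- replicate 2 and 0.62 with array weights. Without Get1 +/+ replicate 1, Neb (adjusted p = 0.00652, limma) and Myh3 (adjusted p = 0.0473) passed, so that 2 members were called, higher in Get1 -/- skin. Calls rose over the whole array in that setting, to 122 of 11404 genes, against 5 of 11387 with all arrays.

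The members varied together from mouse to mouse. The median over members of the deviation from the 6-array mean was 0.19, -0.67 and -0.10 on Get1 +/+ replicates 1, 2 and 3, and 0.36, -0.23 and 0.48 on Get1 -/- replicates 1, 2 and 3, on the log2 scale. The second mouse of each genotype was thus the lowest of its group, and Get1 +/+ replicate 1 lay above Get1 -/- replicate 2. This level averaged -0.19 ± 0.44 (SD, n = 3) in Get1 +/+ and 0.20 ± 0.38 (SD, n = 3) in Get1 -/- skin, a difference of 0.40. Gaps within a genotype reached 0.87 in Get1 +/+ and 0.71 in Get1 -/- skin, larger than the difference between genotypes.

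**Figure D1:**
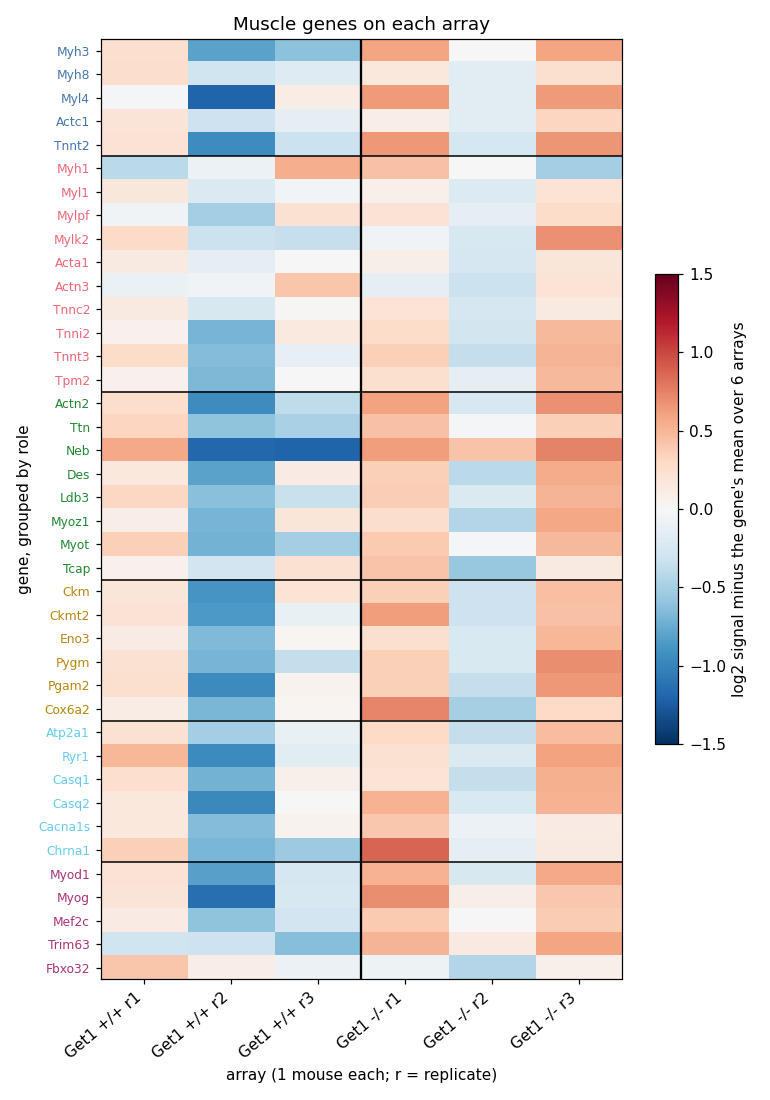
Heat map of the 40 tested muscle genes (rows, grouped and coloured by role) on the 6 arrays (columns, 1 mouse each), coloured by log2 signal minus the gene's mean over the 6 arrays. Most rows are blue on Get1 +/+ replicate 2, which was the lowest array for 31 of 40 genes, and red on Get1 -/- replicate 3, the highest for 26 of 40. Myh1, Actn3 and Fbxo32 depart from this pattern.

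Get1 +/+ replicate 2 was the lowest array for 31 of the 40 members, against 23.0% of all genes. Get1 -/- replicate 3 was the highest for 26 of 40, against 15.3% of all genes. Over the 6 arrays, the correlation between members had a median of 0.84 across 780 pairs of genes, with quartiles of 0.66 and 0.93, and 5.9% of pairs lay below 0. These pairs share the same 6 RNA samples and are not independent. Taking the level of the other members away from each gene narrowed its spread over arrays for 34 of 40 genes, and the median SD went from 0.46 to 0.22 on the log2 scale. Tnnt3, which encodes fast troponin T, followed the common level most closely, with an SD of 0.45 before and 0.07 after subtraction.

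**Figure D2:**
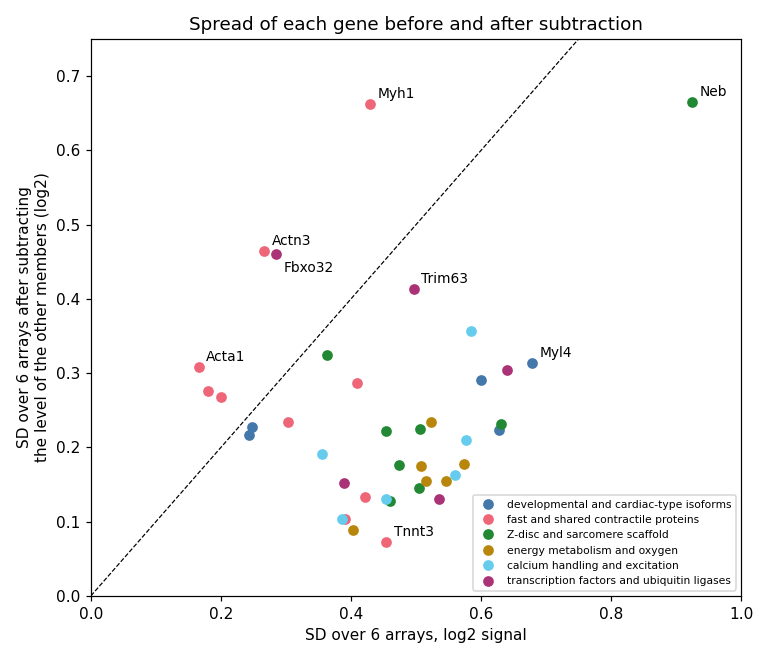
Each point is a muscle gene, with the SD of its log2 signal over the 6 arrays on the x axis and the same SD after subtracting the median level of the other members on the y axis. The dashed line marks equal values. Points below it (34 genes) vary less after subtraction, and Myh1, Actn3, Fbxo32 and 3 bright contractile genes (Acta1, Myl1 and Tnnc2) lie above it.

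Among the developmental and cardiac-type isoforms, all 5 genes had higher means in Get1 -/- skin, with a median log2 change of 0.70, and 0 of 5 passed. Myh3, the embryonic myosin heavy chain of newly formed fibres, read 10777, 5235 and 5970 in Get1 +/+ and 13803, 9159 and 13856 in Get1 -/- mice. Get1 +/+ replicate 1 lay above Get1 -/- replicate 2, so the genotypes overlapped by that single mouse. The log2 change of Myh3 was 0.79 ± 0.27 (SE, limma adjusted p = 0.567), which is 1.73-fold. Myh8, the perinatal myosin heavy chain that follows it in development, read 25952, 17583 and 18986 against 24292, 19352 and 25617, a log2 change of 0.16 ± 0.17 (SE), and the Get1 -/- range lay inside the Get1 +/+ range. Both genes belong to a cluster in which Myh3, Myh2, Myh1, Myh4, Myh8 and Myh13 lie next to one another on chromosome 11 in the RefSeq gene order.

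Myl4, the light chain of embryonic muscle and atrium, read 4280, 1886 and 4694 against 6764, 3894 and 6754, with a log2 change of 0.74 ± 0.34 (SE). Only Get1 -/- replicate 2 fell inside the Get1 +/+ range. Tnnt2, cardiac troponin T that immature skeletal fibres also make, had a log2 change of 0.70 ± 0.32 (SE), and its other kept probe set showed 0.70 as well. Actc1, the cardiac actin that precedes skeletal actin in fetal muscle, was nearly level, with 18967 ± 3411 against 21324 ± 3599 (SD, n = 3) and a log2 change of 0.17 ± 0.16 (SE).

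The fast and shared contractile proteins had the smallest shift, with a median log2 change of 0.14 over 10 measured genes, 8 higher and 2 lower, and 0 passed. Acta1, the main actin of skeletal muscle, read 32111, 26629 and 29269 in Get1 +/+ and 31079, 24715 and 33234 in Get1 -/- mice, a log2 change of 0.01 ± 0.13 (SE) with a 95% interval from -0.28 to 0.30. The fast light chain Myl1 (0.06 ± 0.14, SE) and the fast calcium sensor Tnnc2 (0.06 ± 0.15, SE) had log2 changes of similar size. Each of these 3 log2 changes turned below 0 without Get1 +/+ replicate 2. Higher log2 changes were those of Mylpf, a regulatory light chain (0.23 ± 0.19, SE), of Mylk2, the kinase that phosphorylates it (0.26 ± 0.32), of the fast troponin subunits Tnni2 (0.32 ± 0.25) and Tnnt3 (0.34 ± 0.27), and of beta-tropomyosin Tpm2 (0.39 ± 0.22). Their adjusted p ran from 0.669 to 0.877 (limma). The other kept Tpm2 probe sets gave log2 changes of 0.07, 0.25 and 0.42.

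The probe sets of several of these genes are among the brightest of the array, whose highest signal was 40957. The 10 brightest members (Acta1, Myl1, Myh8, Tnnc2, Actc1, Mylpf, Tnni2, Ckm, Tnnt3 and Ttn) had mean signals of 11381 to 29349, a median SD over arrays of 0.28 and a median log2 change of 0.20. The other 30 had a median SD of 0.51 and a median log2 change of 0.43. Whether the signal saturates at such levels was not tested.

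Myh1 and Actn3 did not follow the other members. Myh1, which encodes an adult fast myosin heavy chain, read 898, 1121 and 1729 in Get1 +/+ and 1614, 1196 and 834 in Get1 -/- mice. It was lowest on Get1 -/- replicate 3, where most members were highest, and highest on Get1 +/+ replicate 3. Its other kept probe set gave the same order at the extremes, with 716 on the former array and 1435 on the latter. The log2 change was -0.04 with the probe set used and 0.03 with the other. A further Myh1 probe set, below the filter, read 3.82 to 29.7. Whether the kept probe sets also read related myosins was not tested. The median correlation of Myh1 with the other members was -0.19 over the 6 arrays, the lowest of the 40, followed by Actn3 (0.18) and Fbxo32 (0.19). Actn3, the alpha-actinin of fast fibres, read 863 ± 180 in Get1 +/+ and 767 ± 147 in Get1 -/- skin (SD, n = 3), a log2 change of -0.17 ± 0.20 (SE). The probe sets of Myh2 (16.5 to 93.5) and the brighter one of Myh4 (9.03 to 101), the other adult fast myosin heavy chains, stayed below the filter on average, and the genotypes overlapped in both.

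**Figure D3:**
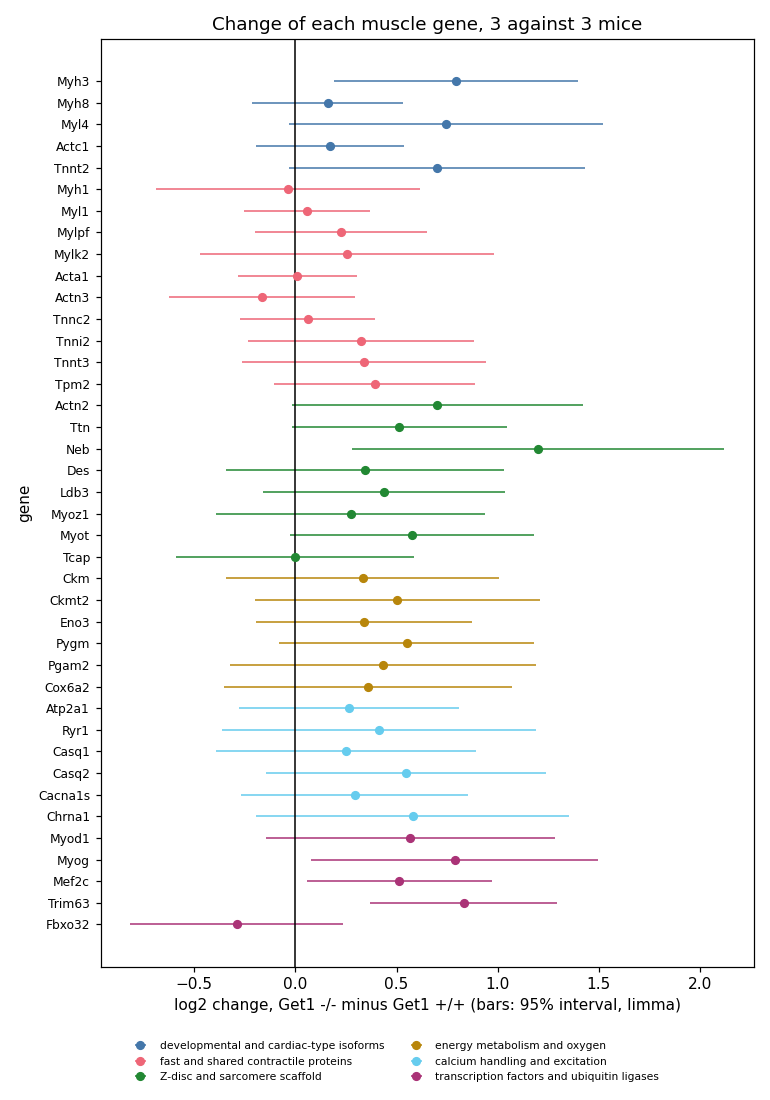
Log2 change of each tested muscle gene (Get1 -/- minus Get1 +/+, x axis) with its 95% interval from limma, coloured by role. Points to the right of 0 (36 of 40) are higher in Get1 -/- skin, and the interval leaves out 0 for 5 genes (Myh3, Neb, Myog, Mef2c and Trim63).

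In the Z-disc and sarcomere scaffold, 7 of 8 genes had higher means in Get1 -/- skin, with a median log2 change of 0.48, and 0 passed. Neb encodes nebulin, a giant protein that runs along the thin filament. It read 4281, 1273 and 1254 in Get1 +/+ and 4422, 3866 and 4831 in Get1 -/- mice. Get1 +/+ replicate 1 thus matched the Get1 -/- mice, and the other Get1 +/+ mice lay far lower. The log2 change of Neb was 1.20 ± 0.41 (SE, limma adjusted p = 0.567), the largest of the members. On Get1 +/+ replicate 3, Neb stood 1.11 below the level of the other members on the log2 scale, and it had the widest spread of all members over the arrays (SD 0.92).

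Titin (Ttn), the elastic filament that spans from the Z-disc to the centre of the sarcomere, read 14256, 7469 and 8126 against 15393, 11174 and 14597. The log2 change was 0.51 ± 0.24 (SE), and the other 4 kept Ttn probe sets gave 0.27 to 0.70. The ends of this range came from dim probe sets (mean signals 211 and 265) that rest on Get1 -/- replicate 1. They read 568 and 985 there, and at most 237 and 197 on any other array. The brighter ones gave 0.55 and 0.66. Actn2, the Z-disc alpha-actinin of all striated muscle, had a log2 change of 0.70 ± 0.32 (SE), and myotilin (Myot), which binds it, 0.58 ± 0.27. Smaller log2 changes were those of Ldb3 (0.44 ± 0.26, SE), the intermediate filament gene Des (0.35 ± 0.31) and Myoz1, a calcineurin-binding Z-disc protein (0.27 ± 0.29). Tcap, the cap of titin at the Z-disc, was level between genotypes, with 596 ± 104 against 613 ± 199 (SD, n = 3). The genotypes overlapped in all 8 genes.

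The genes of energy supply were all higher on average in Get1 -/- skin, 6 of 6 measured, with log2 changes between 0.33 and 0.55 and a median of 0.39, and 0 passed. Muscle creatine kinase Ckm, which buffers ATP from phosphocreatine, read 17383, 8266 and 17614 in Get1 +/+ and 19569, 12330 and 20909 in Get1 -/- mice. The low mice were the second of each genotype, and the log2 change was 0.33 ± 0.30 (SE). The other kept Ckm probe set, far dimmer (mean signal 229), gave a log2 change of -0.0032. The mitochondrial counterpart of Ckm, Ckmt2, showed 0.50 ± 0.31, and the glycogen phosphorylase Pygm, which releases glucose units from glycogen, 0.55 ± 0.28. The glycolytic enzymes Pgam2 (0.43 ± 0.34, SE) and Eno3 (0.34 ± 0.24) and the cytochrome oxidase subunit Cox6a2 (0.36 ± 0.32) lay in the same range of log2 changes. The brighter probe set of myoglobin (Mb), the oxygen store of slow and cardiac muscle, read 6.59 to 102. The filter left out both Mb probe sets.

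Calcium handling and excitation genes were higher on average in 6 of 6 cases, with a median log2 change of 0.35, and 0 passed. The calcium pump Atp2a1, which refills the sarcoplasmic reticulum of fast fibres, read 6803, 4097 and 5374 against 7141, 4543 and 7995, a log2 change of 0.26 ± 0.24 (SE). The release channel Ryr1 had a log2 change of 0.41 ± 0.34 (SE) and its voltage sensor Cacna1s one of 0.29 ± 0.25. The calcium-binding calsequestrins showed 0.25 ± 0.29 for the fast form Casq1 and 0.54 ± 0.31 for the slow and cardiac form Casq2. Chrna1, a subunit of the acetylcholine receptor at the nerve-muscle junction, read 349, 170 and 186 against 500, 245 and 300, a log2 change of 0.58 ± 0.34 (SE). The genotypes overlapped in each of these 6 genes.

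Among the transcription factors, Myog, which drives myoblasts to fuse and differentiate, read 927, 368 and 683 in Get1 +/+ and 1311, 857 and 1066 in Get1 -/- mice. Its log2 change was 0.79 ± 0.32 (SE, limma adjusted p = 0.589), with the genotypes overlapping through Get1 +/+ replicate 1. Mef2c, a partner of the MyoD family, read 2597, 1577 and 1965 against 3139, 2392 and 3118, a log2 change of 0.51 ± 0.20 (SE, adjusted p = 0.588). The other 4 kept Mef2c probe sets gave 0.24 to 0.52, and Mef2c is also active outside skeletal muscle. Myod1, which commits cells to the muscle lineage, had a log2 change of 0.57 ± 0.32 (SE).

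The ubiquitin ligases Trim63 and Fbxo32, both known from muscle wasting, differed in direction. Trim63 read 258, 254 and 203 in Get1 +/+ and 451, 348 and 478 in Get1 -/- mice, without overlap, a log2 change of 0.83 ± 0.21 (SE, limma adjusted p = 0.40) with a 95% interval from 0.37 to 1.30. Trim63 lies on chromosome 4, as Grhl3 does, 23 protein-coding genes away in the RefSeq order. Fbxo32 read 322, 258 and 226 against 229, 177 and 254, a log2 change of -0.29 ± 0.23 (SE, adjusted p = 0.789). After the level of the other members was subtracted, the genotypes overlapped for Trim63 but no longer for Fbxo32. On the log2 scale, Fbxo32 then stood at 0.23, 0.78 and 0.02 in Get1 +/+ and -0.43, -0.22 and -0.40 in Get1 -/- mice. The level of the members was itself 0.40 higher in Get1 -/- skin, so subtraction moves a gene that does not follow it down there. Fbxo32 followed it little (median correlation 0.19), and its SD over arrays rose from 0.28 to 0.46. Its separation appeared only with this subtraction and is not read as a change of Fbxo32 itself. After the same subtraction Myh3 was the 1 member that separated with Get1 -/- higher, and 38 members, Trim63 among them, overlapped. The share of all genes separated on this scale was not computed. Before subtraction, 592 of 11387 genes tested were separated with Get1 -/- higher and 772 with Get1 -/- lower. These counts of members are therefore not read as a result.

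**Figure D4:**
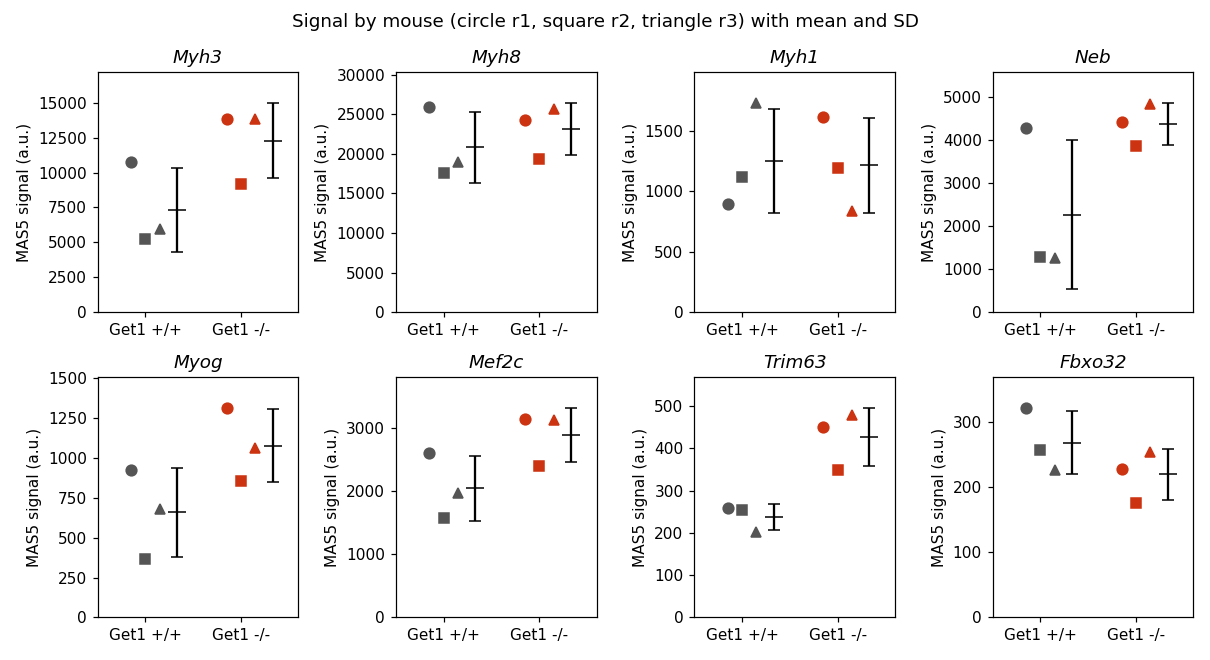
MAS5 signal (y axis, arbitrary units, from 0) of 8 muscle genes in each mouse, with the mean and SD of each genotype beside the points. Trim63 is the 1 gene of the 8 without overlap. Neb is low in 2 of 3 Get1 +/+ mice, and Myh1 does not share the order of the other genes.

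Promoter windows from RefSeq (build GRCm38.p6, 250 bases before to 50 after a start) were found for 32 of the 43 genes and hold 38 windows, some of which overlap. Those of Mylk2, Actn3, Tnni2, Tnnt3, Neb, Myoz1, Myot, Tcap, Cox6a2, Myod1 and Fbxo32 were not matched. The matched windows were searched on both strands for CAGCTG, the E-box form bound by MyoD and myogenin, for a core form of the MEF2 site, and for TATAAA. The E-box form occurred in 19 of 38 windows, or 50% (18 of 32 genes), against 16.3% of the 32851 windows of all genes. The loose MEF2 form occurred in 4 windows (10.5%, against 3.69%), namely those of Ttn, Des and Ldb3, and TATAAA in 11 (28.9%, against 13.6%). The Ldb3 windows overlap and share the same match, CTATTCTTAG, which has a C among the N positions. A match describes these letters alone.

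The 100 bases before the start are shown for 6 members from different roles, 5′ to 3′ on the gene's strand, with matches in capitals. They were chosen to show where an E-box, a TATA sequence or both lie in genes of different roles.

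Myh3, embryonic myosin (chr11:67078200-67078299, + strand, TATAAA in capitals): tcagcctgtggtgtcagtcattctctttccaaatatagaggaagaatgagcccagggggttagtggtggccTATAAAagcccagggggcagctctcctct

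Mylpf, fast regulatory light chain (chr7:127211508-127211607, + strand, CAGCTG in capitals): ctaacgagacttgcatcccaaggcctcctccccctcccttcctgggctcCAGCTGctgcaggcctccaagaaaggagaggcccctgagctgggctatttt

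Des, desmin (chr1:75360192-75360291, + strand, CAGCTG in capitals): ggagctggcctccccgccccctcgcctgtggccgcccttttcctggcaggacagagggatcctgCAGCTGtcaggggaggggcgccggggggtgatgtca

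Atp2a1, fast calcium pump (chr7:126463074-126463173, - strand, CAGCTG in capitals): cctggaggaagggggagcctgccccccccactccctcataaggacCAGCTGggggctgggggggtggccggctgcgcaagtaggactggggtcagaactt

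Chrna1, acetylcholine receptor subunit (chr2:73580339-73580438, - strand, both CAGCTG matches in capitals): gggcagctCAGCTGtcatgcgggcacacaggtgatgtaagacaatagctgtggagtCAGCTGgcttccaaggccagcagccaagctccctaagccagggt

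Trim63, ubiquitin ligase (chr4:134315020-134315119, + strand, CAGCTG and TATAAA in capitals): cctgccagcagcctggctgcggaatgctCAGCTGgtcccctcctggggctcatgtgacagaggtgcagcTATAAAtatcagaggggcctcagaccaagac

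The Trim63 window holds CAGCTG 72 bases before the start and TATAAA 31 bases before it. Chrna1 has CAGCTG at 92 and 44 bases before its start, Atp2a1 at 55, Mylpf at 51 and Des at 36. Myh3 has TATAAA at 29 bases and no CAGCTG in its window.

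Further skeletal muscle genes outside the 43 were also lowest on Get1 +/+ replicate 2. Of 49 measured, 48 had higher means in Get1 -/- skin, with a median log2 change of 0.43, and 0 passed (6 at an unadjusted p under 0.05, limma). Their median deviation was 0.23, -0.70 and -0.16 on the Get1 +/+ and 0.46, -0.19 and 0.42 on the Get1 -/- arrays. The smallest p were those of the MyoD-family factor Myf6 (log2 change 0.92 ± 0.29, SE), the methyltransferase Smyd1 (0.67 ± 0.22), the myosin chaperone Unc45b (0.79 ± 0.32) and Synpo2l (0.84 ± 0.37). Mef2d was the 1 gene with a lower mean (-0.07 ± 0.16). Slow-twitch contractile genes had a median log2 change of 0.70 over 10 measured genes, 8 higher and 2 lower, and 0 passed (5 at an unadjusted p under 0.05, limma). The slow myosin Myh7 (1.35 ± 0.32), the slow troponins Tnnc1 (1.00 ± 0.25) and Tnni1 (0.95 ± 0.25) and Csrp3 (0.71 ± 0.29) had the smallest p there. Tpm3 (-0.10 ± 0.11) and Atp2a2 (-0.21 ± 0.13), which are made in many tissues, had lower means. The difference in shift between slow genes and the fast and developmental ones was not tested.

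**Figure D5:**
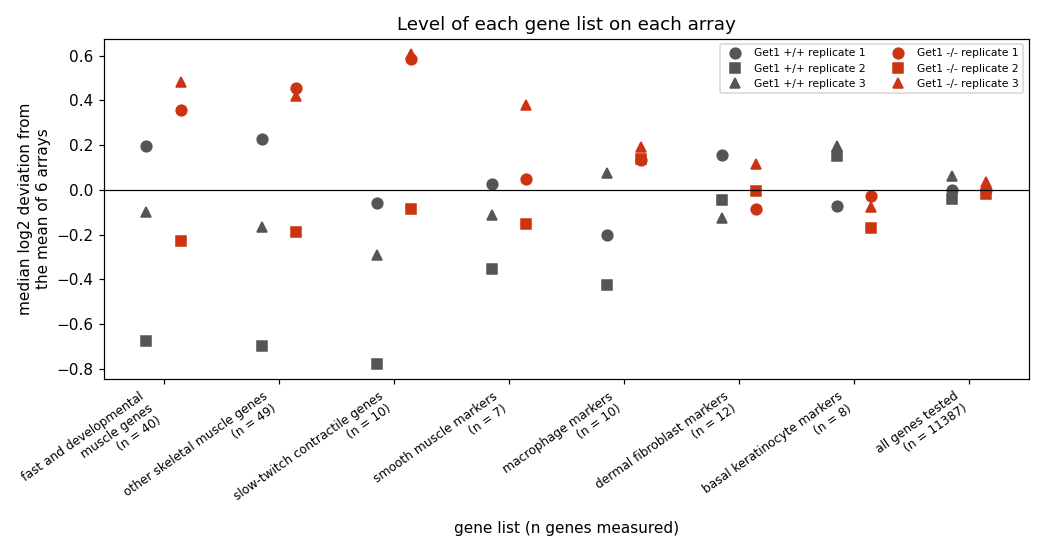
Median log2 deviation from the mean of the 6 arrays (y axis) for 7 gene lists and all genes tested (x axis), with 1 point per mouse. The 3 skeletal muscle lists are lowest on Get1 +/+ replicate 2 (-0.67, -0.70 and -0.78), and smooth muscle (-0.36) and macrophage markers (-0.43) are lowest there too. The dermal fibroblast and basal keratinocyte lists stay between -0.17 and 0.19.

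Markers of other tissues gave the following values beside the muscle genes. Of the heart-restricted genes 8 of 9 stayed below the filter, among them Myh6 (9.08 to 36.9), Nppa (18.8 to 85.0) and Tnni3 (32.1 to 90.8), and Myl7, the 1 measured, read 104 to 238. Smooth muscle markers were higher on average in 7 of 7 measured genes, with a median log2 change of 0.22 and summed signals of 9512 to 12917 in Get1 +/+ and 11184 to 15166 in Get1 -/- skin; Cnn1, Lmod1 and Myocd were below the filter. Dermal fibroblast markers had 7 of 12 higher, a median of 0.05 and overlapping sums (152707 to 192825 against 165032 to 190003). Basal keratinocyte markers had 1 of 8 higher, a median of -0.12 and sums of 61938 to 74370 against 61045 to 63153. Macrophage markers had 7 of 10 higher, a median of 0.35 and sums that did not overlap (11508 to 15423 against 16276 to 17893). For the muscle genes the sums were 195909 to 308590 in Get1 +/+ and 238622 to 355240 in Get1 -/- skin. Smooth muscle, macrophage and Schwann cell markers shared the lowest array of the muscle genes, Get1 +/+ replicate 2, with median deviations of -0.36, -0.43 and -0.31 there on the log2 scale. Adipocyte markers ran the other way, with -0.22, 0.23 and -0.07 on Get1 +/+ replicates 1, 2 and 3. On Get1 -/- replicates 1, 2 and 3 they stood at -0.24, 0.53 and 0.04. They were thus highest on the second mouse of each genotype, where the muscle genes were lowest. The part of tissue composition in these values was not tested.

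The control probe sets for beta-actin gave a ratio of 3' over 5' signal between 1.354 and 1.365 on the Get1 +/+ arrays and between 1.359 and 1.494 on the Get1 -/- arrays. For Gapdh the ratios were 0.692 to 0.810 and 0.732 to 0.844. The second mouse of each genotype, lowest for the muscle genes, also had the lowest Gapdh ratio of its group (0.692 and 0.732). Get1 +/+ replicates 1 and 3 had 0.810 and 0.777, and Get1 -/- replicates 1 and 3 had 0.844 and 0.828. Over all arrays the Gapdh ratio had the order of the muscle level, except that Get1 -/- replicates 1 and 3, the highest, traded places. The beta-actin ratio did not share that order, being highest (1.494) on Get1 -/- replicate 2. The arrays were also split at the median signal of the middle beta-actin control. This gave 3 arrays with a higher value (Get1 +/+ replicates 1 and 2 and Get1 -/- replicate 1) and 3 with a lower one. The muscle level differed between genotypes by 0.60 within the former and by 0.22 within the latter, on the log2 scale, each resting on a single array of one genotype. The part of RNA quality in these differences was not tested.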

How the data were processed

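The authors deposited 1 table of linear signal intensity values, made with MAS5 per the submitters' processing notes (no version is given there), for 45037 probe sets and 64 controls on 6 arrays. Genome build and detection calls are not given in the sources used here. The deposited intensities had the same 2% trimmed mean on each array and were not scaled further. From them log2 values were computed. Probe sets with a mean log2 at or above the median were kept (22519), and each gene with a single platform symbol was represented by its brightest kept probe set. Of 18 other kept probe sets of members, 16 had a log2 change of the same sign as the one used. These 16 include the dim Ttn probe sets that rest on Get1 -/- replicate 1. Symbols of all 43 members matched the RefSeq table by gene identifier. The test of Get1 -/- against Get1 +/+ was a two-sided linear model without covariates (R 4.3.3, package limma 3.58.1, moderated variances with a mean trend). Benjamini-Hochberg adjustment ran over all 11387 genes. SE and 95% intervals come from this fit. Simulated data with independent noise for each gene were used to check its fitted changes, their signs and the calls, not the intervals. The number of arrays limits precision. All members are named; of other muscle lists, the 4 smallest p per direction. Members and lists were chosen with earlier results of these data known. Adipocyte (median log2 change 0.14, 6 of 7 higher) and Schwann cell markers (0.09, 4 of 5) were also read. Alternatives were quantile normalization, median centring, 2 other filters, an offset of 37.5 before log2, no trend, array weights, a replicate block, the mean of probe sets and each array left out.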

Additional observations from a re-analysis of the deposited data

How the results depend on the processing

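The count of genes called was 5 and became 10 with median centring, 8 with array weights and 44 with the replicate block, and lay between 4 and 122 with single arrays left out. The count of members called was 0, stayed 0 with the replicate block, and ranged from 0 to 2 with single arrays left out. Same-numbered mice deviated together at -0.02, 0.36 and -0.03 over the genes tested and at 0.13, 0.26 and 0.14 over the kept probe sets, and 2 of 6 arrays correlated best with their own number over the genes tested. The rule asked for over 0.1 in each pair over the genes tested, so the numbers were not taken as pairs, although each pair passes it over the kept probe sets. Whether the numbers mark shared litters or days is not given in the sources used here. The muscle level was higher in the Get1 -/- mouse within each number. With the block 24 of 40 members had an unadjusted p under 0.05 (limma), where 1261 of 11387 genes tested did. The smallest adjusted p of the members was 0.104 (Myl4, limma). Members higher numbered from 30 of 40 (without Get1 +/+ replicate 2) to 38 of 40 (without Get1 +/+ replicate 3) in the alternatives run. The number measured differed with the stricter filter (31 of 34), without a filter (37 of 43) and without Get1 -/- replicate 3 (34 of 39).

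Of 40 members 32 were not reversed in any alternative that measured them. Of these, 26 were measured in all 15 alternatives, and the other 6 (Mylk2, Cacna1s, Chrna1, Myod1, Trim63 and Fbxo32) missed the stricter filter, Mylk2 also the filter without Get1 -/- replicate 3. Tcap, -0.00 in the main fit, was 0.0018 with median centring, 4.2e-06 with the offset and 0.15 with array weights, and -0.22 to 0.28 with arrays left out. With arrays left out the log2 change ranged from -0.037 to 0.17 for Myl1, -0.078 to 0.14 for Acta1, -0.048 to 0.20 for Tnnc2, -0.0061 to 0.56 for Myoz1, -0.029 to 0.57 for Ckm, -0.041 to 0.49 for Casq1 and -0.27 to 0.23 for Myh1. The causes were not tested. With 3 arrays per genotype, signal below the filter limits what can be read for Myh2, Myh4 and Mb. Mylk2 (116 to 236) lay near the filter at 137, which limits what can be read for it too.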
